A study of Rattus norvegicus with 6 samples.

Results

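Semaphorins, ephrins, Slits and their receptors are guidance proteins, which tell growing axons, migrating cells and vessel sprouts where to go. The set described here holds every row of the authors' gene table whose symbol begins with Sema3 to Sema7, Plxna to Plxnd, Efna, Efnb, Epha, Ephb or Unc5, or is Nrp1, Nrp2, Slit1 to Slit3 or Robo1 to Robo4. The rule found 57 of 19088 gene rows, and none of them was Robo3 or Robo4. One of them, Unc50, is a Golgi and nuclear membrane protein that shares only the letters of its name, which leaves 56 guidance genes, 30 ligands and 26 receptors.

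The cells were primary nucleus pulposus cells, from the gelatinous core of the intervertebral disc, of rats of the strain the labels call SD. They grew in DMEM/F12 with 10% fetal bovine serum. The rShh group (n = 3) received recombinant Sonic hedgehog at 200 ng/ml in DMSO for 48 h, and the Control group (n = 3) received DMSO for 48 h. Messenger RNA was sequenced, and the comparison asked what the ligand changed in these cells. Nothing in the labels tells whether the 3 samples of a group came from different animals or dishes. The p-values therefore refer to the scatter among these samples alone, and that scatter may be technical.

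Semaphorins signal through plexins, and the secreted class 3 proteins mostly need a neuropilin as the part that binds them. Ephrins are held in the membrane of one cell and bind Eph receptor tyrosine kinases on the next, so that both cells can receive a signal. Slits are large secreted proteins that repel cells through Robo receptors, and Unc5 proteins are repulsive receptors for netrins. In the disc, class 3 semaphorins and Slits are studied because nerves and vessels are kept out of the healthy core.

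The groups differed in more than the ligand. Gene counts summed to 50758195 to 55501124 in the Control libraries, and with rShh to 65116846 to 70031072, of which the 57 rows took 0.379% to 0.438% and 0.341% to 0.349%. The mitochondrial share of counts was 1.97% to 2.28% in the Control and 3.25% to 3.36% in the rShh libraries, without overlap, and its part in the results was not tested. Y-chromosome transcripts separated the groups too: 4 such genes had no count in any Control library and together 13442 to 14526 counts in each rShh library. The ligand and this difference cannot be told apart, for any gene below.

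Marker genes of the labelled cell type and of others differed between the groups too, given here in FPKM (fragments scaled to transcript length and to library size, as the authors give them). Among all 14775 genes tested, 31.5% rose and 28.8% fell at an adjusted p below 0.05 (edgeR), 60.3% in either direction. Of 12 tested nucleus pulposus markers 6 rose and 5 fell, a share of 91.7%. Acan, or aggrecan, a large water-binding matrix protein, rose from 6.80 ± 0.905 to 71.0 ± 1.11 FPKM (mean ± SD, n = 3), while Cd24 fell from 23.2 ± 1.75 to 7.04 ± 0.607, Krt8 from 5.42 ± 0.287 to 0.905 ± 0.119 and Foxa2 from 0.785 ± 0.142 to 0.219 ± 0.0472 FPKM. Also higher were Hif1a (3.22-fold), Slc2a1 (2.18-fold), Ca3 (3.36-fold), Cdh2 (2.15-fold) and Ca12, a trace gene that rose from 0.00795 ± 0.0138 to 0.525 ± 0.128 FPKM. Bsg and Pax1 fell 1.45-fold and 1.31-fold, and Foxf1 did not pass. Krt18 stayed under 0.1 FPKM in every library, and Krt19, Noto, Ovos2 and Tbxt had no row. Of 7 fibroblast markers 6 rose, among them Thy1 (11.9-fold), Dcn (29.7-fold) and Lum (7.95-fold), and 1 fell. The one that fell, Col1a1, went from 5049 to 2368 FPKM and carried the list's sum, which was 5218 to 5545 FPKM in the Control and 3281 to 3322 in the rShh libraries. Of 7 mural and muscle markers 6 rose (Cnn1, Cspg4, Des, Myh11, Notch3 and Rgs5) and 1 fell (Mcam). Their sums were 103 to 141 FPKM in the Control and 355 to 357 FPKM in the rShh libraries. In the fibroblast and in the mural and muscle list 100% were called, beside 60.3% of all genes. Of 6 tested chondrocyte markers Sox9 rose 1.99-fold, Col2a1, Col9a1 and Matn3 fell 14.9-fold, 14.9-fold and 3.20-fold, and 2 did not pass. The chondrocyte sums were 4.40 to 4.71 and 3.30 to 3.67 FPKM. Col2a1 and Col9a1 were low in both groups. Col2a1 went from 0.296 ± 0.0221 to 0.0183 ± 0.0245 FPKM and Col9a1 from 0.464 ± 0.0280 to 0.0304 ± 0.0288 FPKM. The rShh libraries held 17, 4 and 0 counts of Col2a1 and 0, 11 and 17 of Col9a1, so both folds rest on few counts. Of 6 tested neuron markers 3 fell (Gap43, Stmn2 and Syt1) and 3 did not pass, with sums of 4.19 to 6.11 and 0.727 to 1.18 FPKM, and Elavl4 and Nefl were under 0.1 FPKM in every library. Gap43 had 91, 50 and 57 counts in the Control libraries and 2, 0 and 0 counts with rShh. Syt1 had a mean under 0.1 FPKM over all libraries, so both falls rest on low values. The Schwann and glial sum, 107 to 123 and 34.6 to 38.3 FPKM, was nearly all S100b, which fell, and Erbb3 was under 0.1 FPKM in every library. Of 4 tested endothelial markers Tek fell from 1.05 ± 0.173 to 0.323 ± 0.0114 FPKM and 3 did not pass, with sums of 17.7 to 21.5 and 20.0 to 21.1 FPKM carried by Egfl7, and Cldn5, Tie1 and Vwf were under 0.1 FPKM in every library. The 3 tested leukocyte markers and the 1 tested epithelial marker did not pass, with sums of 5.41 to 6.99 and 6.24 to 7.76 FPKM for the first and 7.72 to 11.5 and 11.5 to 14.1 FPKM for the second, and Cdh1 and Cldn4 were under 0.1 FPKM in every library. Shares that passed were 66.7% of tested chondrocyte, 50% of neuron, 33.3% of Schwann and glial and 25% of endothelial markers. They lay near or below the 60.3% of all genes, so those counts are no result about these cell types. The part of these cell types in the results was not tested, and in bulk RNA fewer cells of a type and less RNA per cell cannot be told apart.

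Guidance genes moved in both directions. Sema7a rose 8.32-fold while Sema5a and Sema6a fell 9.01-fold and 6.61-fold. Efnb2 rose 2.47-fold while its receptor Ephb4 fell 3.40-fold, Nrp2 rose 2.02-fold while Plxna1 fell 2.65-fold, and Slit2 and Robo1 both fell. Of the 56 guidance genes, 51 had enough counts to be tested with edgeR's quasi-likelihood test, and 12 of these rose, 20 fell and 19 did not pass at an adjusted p below 0.05. The share called, 62.7%, was near the 60.3% called among all 14775 genes tested, so the count as such is no result about these genes. Falls made up 39.2% of the tested guidance genes and 28.8% of all genes, and rises 23.5% and 31.5%. Of the 51, 8 (15.7%) were called and at least 2-fold higher, against 13.0% of all genes, and 11 (21.6%) were called and at least 2-fold lower, against 5.71%. The median log2 change was -0.22, beside 0.01 over all genes tested. In 37 of the 51 (72.5%) the 3 values of one group all lay above those of the other, against 68.1% of all genes.

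Of 28 tested ligands 6 rose, 11 fell and 11 did not pass, a called share of 60.7%. Of 23 tested receptors 6 rose, 9 fell and 8 did not pass, a called share of 65.2%. Both shares were near the 60.3% of all genes tested, so these counts are no result about ligands or receptors. The guidance genes without a test were Efnb3, Ephb1, Plxnc1, Slit1 and Unc5a, each with at most 23 counts in any library.

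**Figure D1:**
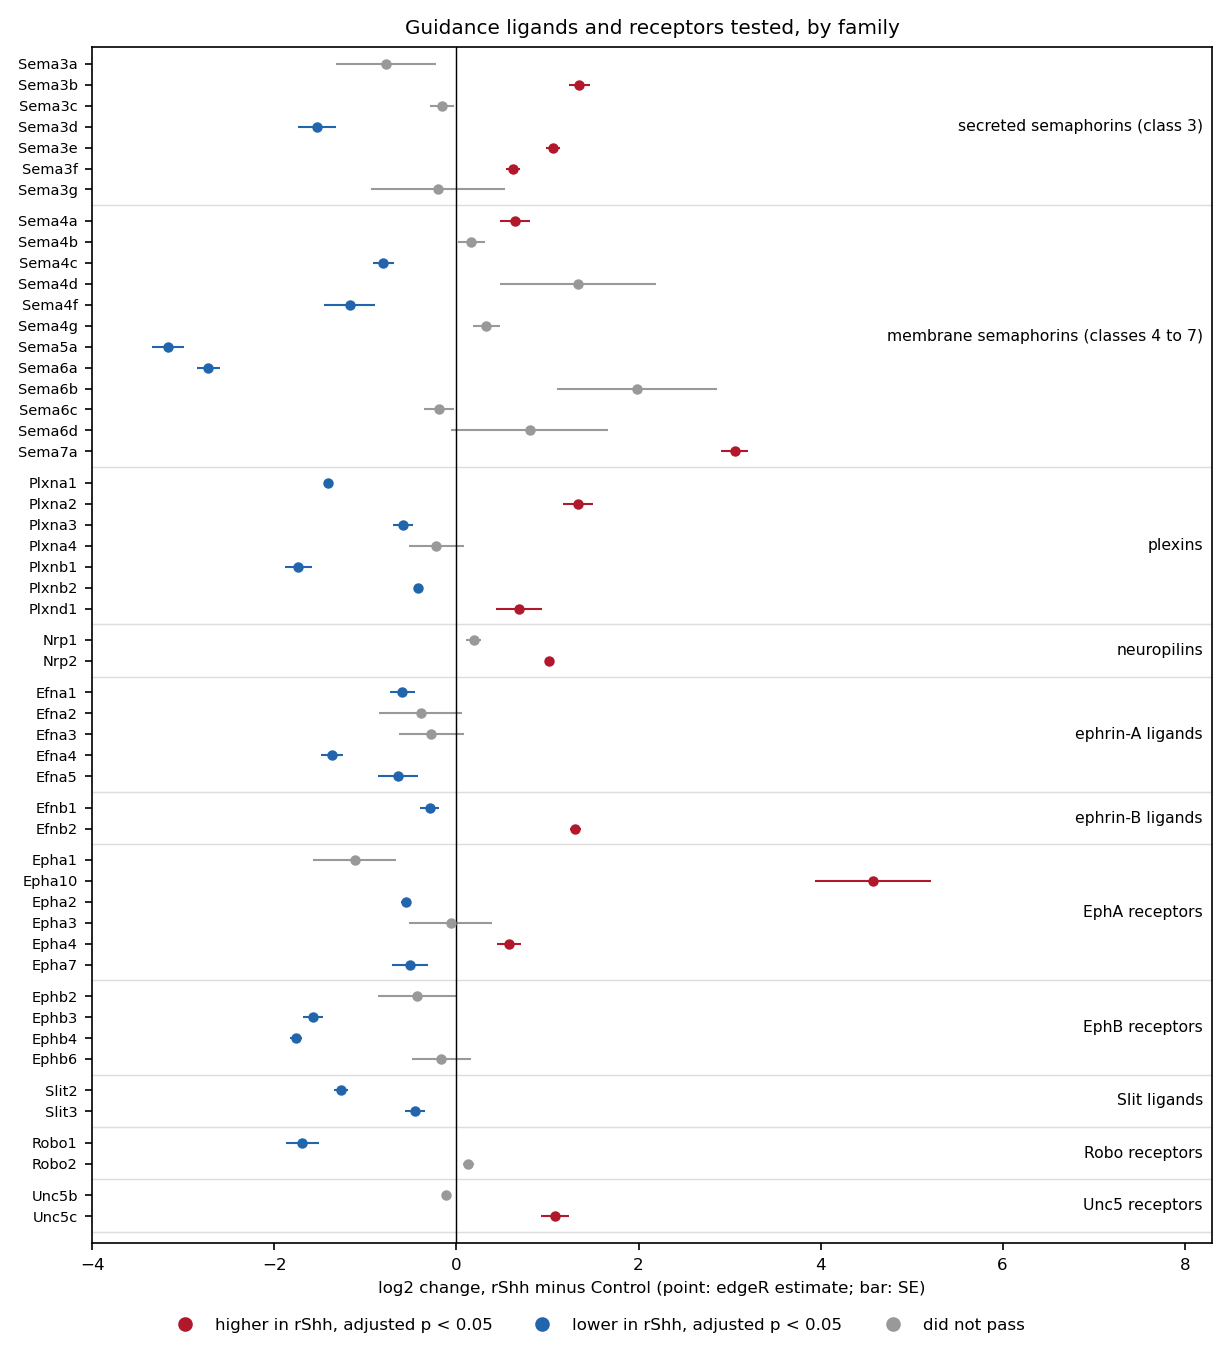
Log2 change (rShh minus Control, x axis) of the 51 tested guidance genes, grouped by family; points are edgeR estimates, bars their SE, and colour shows the call. Sema7a and Epha10 lie farthest to the right, Sema5a and Sema6a farthest to the left, and most families hold points on both sides of 0.

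The promoters of 4 genes are shown because these genes carry the results that follow: the ligand Sema7a, the pair Efnb2 and Ephb4, and the receptor Epha10. They are the 250 bases upstream of the transcription start from RefSeq (build GRCr8), 5′ to 3′ on the gene's own strand, with the letters of any motif searched in capitals. Sema7a lies on the plus strand at chr8:67244068-67244317, Efnb2 on the plus strand at chr16:87484965-87485214, Ephb4 on the minus strand at chr12:24988389-24988638 and Epha10 on the plus strand at chr5:142424046-142424295.
Sema7a: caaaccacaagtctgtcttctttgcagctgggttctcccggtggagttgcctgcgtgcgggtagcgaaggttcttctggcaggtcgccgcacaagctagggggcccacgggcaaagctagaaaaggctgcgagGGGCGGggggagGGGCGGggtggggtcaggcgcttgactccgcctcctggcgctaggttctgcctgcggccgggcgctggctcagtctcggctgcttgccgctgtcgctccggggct
Efnb2: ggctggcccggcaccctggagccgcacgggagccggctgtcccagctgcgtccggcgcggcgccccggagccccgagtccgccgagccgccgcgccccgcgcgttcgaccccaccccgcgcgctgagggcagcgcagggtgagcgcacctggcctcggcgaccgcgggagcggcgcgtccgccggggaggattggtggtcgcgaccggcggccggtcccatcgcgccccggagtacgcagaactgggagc
Ephb4: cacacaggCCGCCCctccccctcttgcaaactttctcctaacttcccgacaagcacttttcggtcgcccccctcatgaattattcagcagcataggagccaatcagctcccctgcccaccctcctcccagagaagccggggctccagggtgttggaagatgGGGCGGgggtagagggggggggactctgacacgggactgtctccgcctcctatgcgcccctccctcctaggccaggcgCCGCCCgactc
Epha10: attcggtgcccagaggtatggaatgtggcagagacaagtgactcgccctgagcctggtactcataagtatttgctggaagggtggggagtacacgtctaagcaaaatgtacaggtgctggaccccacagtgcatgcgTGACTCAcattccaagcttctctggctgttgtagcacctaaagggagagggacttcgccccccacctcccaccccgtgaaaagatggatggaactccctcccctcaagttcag
The motifs, read on both strands, were the GLI binding sequence GACCACCCA, the GC box GGGCGG, the TATA box TATAAA and the AP-1 site TGACTCA; none of the 4 contains another. Promoters of 44 of the 57 rows were matched by symbol. None of the 44 held the GLI sequence, which 0.338% of all 33469 promoters held. A GC box stood in 26 of the 44 (59.1%) and in 30.5% of all promoters, a TATA box in 0 of the 44 and in 12.9% of all, and the AP-1 site in 1 (Epha10, 2.27%) and in 4.05% of all. The median GC content was 62.8% in the 44 and 51.2% in all promoters. These are matches of letters in a short window and say nothing of binding. The 33469 promoters outnumber the 19088 gene rows, so the sets are unlike and these shares are not traits shown for guidance genes.

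Secreted class 3 semaphorins held the most abundant transcript of the set and split by member. Sema3c, which guides cardiac neural crest and some axons, made up 80.0% of the family's summed FPKM in the Control and 78.9% in the rShh group. It read 195, 145 and 119 FPKM in the Control libraries, and with rShh 137, 142 and 135 FPKM. The groups overlapped, and Control replicate 1 was the highest of the 6. The log2 change was -0.16 (SE 0.13, edgeR adjusted p = 0.325). Without Control replicate 1 it was 0.04 (edgeR adjusted p = 0.667), and without Control replicate 3 it was -0.31 and passed (edgeR adjusted p = 0.0190), so the direction for Sema3c rests on single Control libraries.

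Sema3d, a relative that guides endothelial and axonal growth, fell. Its values were 33.7, 19.6 and 17.0 FPKM in the Control libraries, and with rShh 7.78, 7.91 and 8.70 FPKM. All Control values lay above all rShh values, and Control replicate 1 was again the highest. The log2 change was -1.53 (SE 0.20, edgeR adjusted p = 0.000104), and -1.19 without Control replicate 1.

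Sema3e, Sema3b and Sema3f rose. Sema3e, which binds plexin-D1 directly and repels endothelial cells, read 4.44, 4.11 and 3.65 FPKM against 8.58, 8.63 and 8.38 FPKM (log2 change 1.06, SE 0.08, edgeR adjusted p = 2.09e-06). Sema3b, a p53-induced semaphorin, read 3.15, 3.87 and 3.56 FPKM against 8.10, 10.4 and 8.78 FPKM (log2 change 1.35, SE 0.12, edgeR adjusted p = 6.15e-06). Sema3f, the main ligand of neuropilin-2, read 7.42, 6.25 and 7.49 FPKM against 10.5, 11.5 and 10.7 FPKM (log2 change 0.62, SE 0.08, edgeR adjusted p = 7.00e-05). In each of the 3 every rShh library was above every Control library. Sema3a, the classic repellent of sensory axons, was low, at 0.388, 0.212 and 0.0956 FPKM and 0.0992, 0.116 and 0.187 FPKM, and the groups overlapped (edgeR adjusted p = 0.247). Sema3g stayed at or below 0.137 FPKM in every library and did not pass.

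Membrane semaphorins changed their leading member. The summed FPKM of the 12 genes of classes 4 to 7 was 28.7 ± 2.69 (mean ± SD, n = 3) in the Control and 19.1 ± 0.604 in the rShh group. Sema6a gave 51.2% of that sum in the Control and 11.6% in the rShh group. Without Sema6a the rest of the family was higher in the rShh group, by 0.28 on the log2 scale.

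Sema7a, the semaphorin anchored in the membrane by a lipid, which acts on integrins and on plexin-C1, showed the largest rise among these ligands. It lies on chromosome 8 at 62723788 to 62745868, plus strand, in the authors' coordinates, whose build is not given in the sources used here. Its values were 0.819, 0.846 and 1.17 FPKM in the Control libraries, and with rShh 7.63, 8.54 and 7.61 FPKM. The groups lay far apart, with a log2 change of 3.06 (SE 0.15, edgeR adjusted p = 9.49e-08). Plxnc1, its plexin receptor, was at 0 to 0.0478 FPKM in all 6 libraries. Sema4a, known from immune cells and the retina, rose from 0.899 ± 0.159 to 1.42 ± 0.0656 FPKM (n = 3; edgeR adjusted p = 0.00611), a call that was lost on quantile-normalized FPKM (limma adjusted p = 0.248).

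Sema6a, a transmembrane ligand of plexin-A2 and plexin-A4, fell. It read 16.6, 13.5 and 13.9 FPKM in the Control libraries, and with rShh 2.63, 2.05 and 2.00 FPKM (log2 change -2.73, SE 0.13, edgeR adjusted p = 8.10e-08). Sema5a, which carries thrombospondin repeats, read 4.33, 2.96 and 2.63 FPKM against 0.382, 0.350 and 0.371 FPKM (log2 change -3.17, SE 0.18, edgeR adjusted p = 2.19e-07). Neither pair of groups came near to overlapping. Sema4f read 0.879, 1.11 and 1.01 FPKM against 0.654, 0.335 and 0.341 FPKM (log2 change -1.18, SE 0.28, edgeR adjusted p = 0.00443), with rShh replicate 1 closest to the Control libraries. Sema4c, a ligand of plexin-B2, fell from 3.85 ± 0.340 to 2.22 ± 0.209 FPKM (n = 3; edgeR adjusted p = 0.000128).

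The other 6 membrane semaphorins did not pass. Sema4b, Sema4g and Sema6c had means between 1.03 and 1.65 FPKM in each group. Sema4g passed without Control replicate 1 (log2 change 0.45, edgeR adjusted p = 0.0195), and Sema6c on quantile-normalized FPKM (log2 change -0.31, limma adjusted p = 0.0145). Sema4d, Sema6b and Sema6d stayed at or below 0.200 FPKM, and the log2 change of Sema6d, 0.80, was 1.52 without Control replicate 1 and -0.28 without rShh replicate 2.

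**Figure D2:**
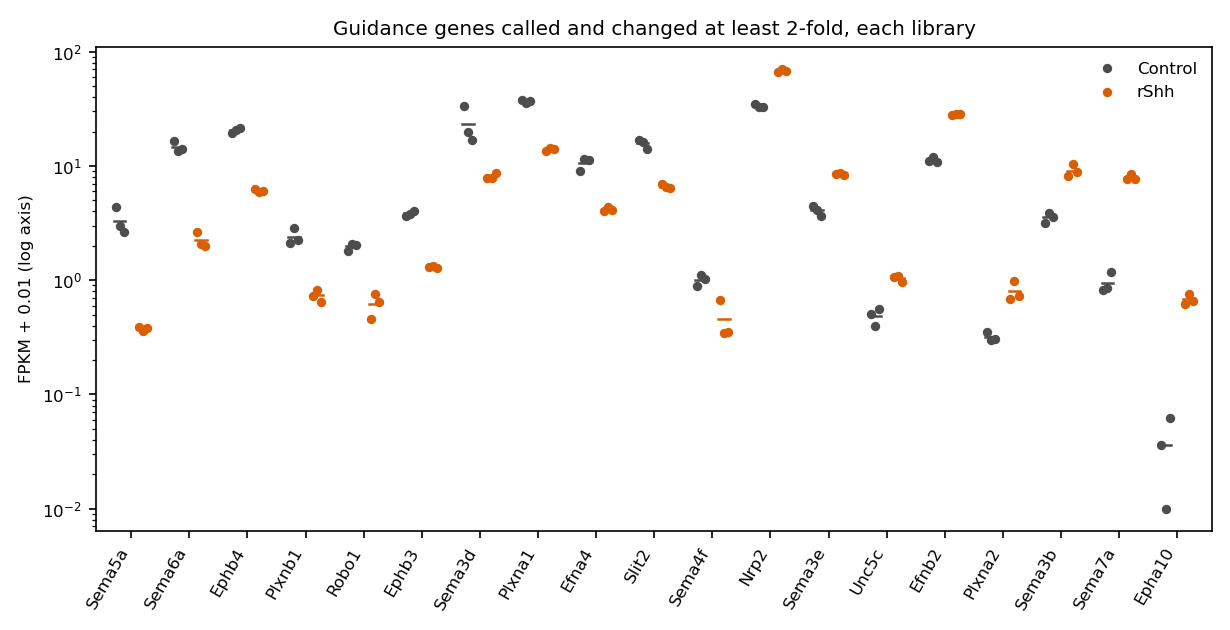
FPKM + 0.01 (log axis) in each library for the 19 guidance genes called and changed at least 2-fold, ordered by log2 change; points are libraries (grey Control, orange rShh) and lines group means. No gene's groups overlap, which choosing genes by call and fold change makes likely. Among genes above 10 FPKM the Control values of Sema3d are the most spread.

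Semaphorin receptors went opposite ways: neuropilin-2 rose and the abundant plexins fell. Nrp2, a neuropilin that binds Sema3c and Sema3f, though not as their only possible partner, lies on chromosome 9 at 69497121 to 69612087. It read 35.0, 33.0 and 32.5 FPKM in the Control libraries, and with rShh 66.5, 70.6 and 67.6 FPKM. The log2 change was 1.02 (SE 0.05, edgeR adjusted p = 7.38e-08). Nrp1, a neuropilin that binds Sema3a and VEGF, read 6.97, 6.89 and 5.78 FPKM against 7.16, 7.61 and 7.75 FPKM. Those groups did not overlap, but the change of 0.19 (SE 0.08) did not pass (edgeR adjusted p = 0.0687); it passed without Control replicate 1 (edgeR adjusted p = 0.0417). The ratio of Nrp2 to Nrp1 FPKM was 5.15 ± 0.432 in the Control and 9.10 ± 0.324 in the rShh group (n = 3).

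Plexins are single-pass receptors with an inner domain that switches off small GTPases of the Ras family. Plxnb2, the most abundant, read 67.4, 64.7 and 65.2 FPKM in the Control libraries, and with rShh 49.5, 50.6 and 48.0 FPKM (log2 change -0.42, SE 0.05, edgeR adjusted p = 2.65e-05). Plxna1, which pairs with neuropilins, read 37.7, 35.7 and 37.0 FPKM against 13.4, 14.4 and 14.1 FPKM (log2 change -1.41, SE 0.05, edgeR adjusted p = 9.91e-09). Every Control library was above every rShh library for both. Plxnb1, the receptor of Sema4d, read 2.12, 2.83 and 2.25 FPKM against 0.717, 0.818 and 0.639 FPKM (log2 change -1.74, SE 0.15, edgeR adjusted p = 4.54e-06), again without overlap. Plxna3, one of 2 members on chromosome X, fell from 4.18 ± 0.639 to 2.80 ± 0.151 FPKM (log2 change -0.59, edgeR adjusted p = 0.000854).

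A pair of low plexins rose. Plxna2 read 0.342, 0.291 and 0.295 FPKM in the Control libraries, and with rShh 0.675, 0.974 and 0.713 FPKM (log2 change 1.33, SE 0.17, edgeR adjusted p = 6.51e-05). Plxnd1, the Sema3e receptor of vessels, rose from 0.428 ± 0.142 to 0.692 ± 0.0850 FPKM (n = 3; edgeR adjusted p = 0.0366). Leaving out Control replicate 2, rShh replicate 1 or replicate 3 of rShh ended that call (edgeR adjusted p = 0.0822, 0.126 and 0.0829), as did upper-quartile scaling (edgeR adjusted p = 0.0541) and testing with no filter on low counts (edgeR adjusted p = 0.0508). Plxna4 was at 0.177 to 0.278 FPKM and did not pass. The summed plexin FPKM was 110 ± 2.84 in the Control and 68.6 ± 1.499 in the rShh group (n = 3), and the summed neuropilin FPKM 40.1 ± 1.84 and 75.8 ± 2.30.

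Efnb2 rose while Efnb1 and the receptors Ephb3 and Ephb4 fell, and the other 2 tested EphB receptors did not pass. Efnb2, a transmembrane ligand that marks arterial endothelium and mesenchymal boundaries, lies on chromosome 16 at 86631064 to 86675049. It read 11.1, 12.04 and 10.8 FPKM in the Control libraries, and with rShh 28.1, 28.2 and 28.3 FPKM. The rShh values were nearly identical and all above the Control values (log2 change 1.304, SE 0.06, edgeR adjusted p = 6.71e-08). Ephb4, the receptor that binds Efnb2 almost alone among ephrins, lies on chromosome 12 at 22393330 to 22417980. It read 19.6, 20.6 and 21.3 FPKM against 6.26, 5.93 and 5.99 FPKM, with no overlap (log2 change -1.76, SE 0.07, edgeR adjusted p = 1.88e-08).

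The ratio of Efnb2 to Ephb4 FPKM was 0.570, 0.585 and 0.510 in the Control libraries, and with rShh 4.49, 4.76 and 4.72. The receptor was thus the more abundant transcript in each Control library and the ligand in each rShh library. Ephb3, a kinase of tissue boundaries, read 3.67, 3.80 and 4.05 FPKM against 1.299, 1.31 and 1.27 FPKM (log2 change -1.58, SE 0.11, edgeR adjusted p = 8.58e-07). Ephb2, the widely studied synaptic receptor, and Ephb6, whose kinase domain is inactive, stayed at or below 0.563 FPKM and did not pass. Ephb1 had 4 counts in 1 Control library and none elsewhere. The summed FPKM of the ephrin-B ligands was 22.6 ± 1.93 in the Control and 37.4 ± 0.255 in the rShh group (n = 3), and that of the EphB receptors 24.9 ± 1.18 and 7.86 ± 0.167.

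Efnb1, the chromosome X ephrin behind craniofrontonasal syndrome, read 9.36, 12.2 and 12.1 FPKM in the Control libraries, and with rShh 9.16, 9.48 and 9.02 FPKM. Control replicate 1 lay within the rShh values. The log2 change was -0.29 (SE 0.11, edgeR adjusted p = 0.0337). The call was lost without Control replicate 2, Control replicate 3 or any of the rShh replicates 1, 2 and 3 (edgeR adjusted p = 0.0766 to 0.130), and with limma on log2 FPKM (adjusted p = 0.0518). Efnb3 had 16 and 3 counts in 2 Control libraries and 0 counts elsewhere.

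The ephrin-A ligands, which hang on the membrane by a lipid anchor, fell where they passed. Efna4 read 9.06, 11.6 and 11.2 FPKM in the Control libraries, and with rShh 4.02, 4.34 and 4.08 FPKM (log2 change -1.37, SE 0.12, edgeR adjusted p = 7.14e-06). Efna1, the preferred ligand of Epha2, read 6.09, 7.94 and 6.73 FPKM against 4.28, 4.52 and 5.05 FPKM (log2 change -0.59, SE 0.13, edgeR adjusted p = 0.00319). Both showed groups that did not overlap. Efna5 read 7.32, 5.43 and 5.79 FPKM against 4.74, 2.97 and 4.21 FPKM (log2 change -0.64, SE 0.22, edgeR adjusted p = 0.0277); it did not pass when Control replicate 1, rShh replicate 2 or replicate 3 of rShh was left out (edgeR adjusted p = 0.0796, 0.0972 and 0.0567). Efna2 and Efna3, at 0.360 to 2.43 FPKM, overlapped between the groups. The family sum was 26.4 ± 1.33 FPKM in the Control and 14.9 ± 1.02 in the rShh group (n = 3).

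Among EphA receptors the abundant one fell and a trace one rose. Epha2, a receptor common in epithelium and mesenchyme, made up 94.0% of the family's summed FPKM in the Control and 89.5% in the rShh group. It read 41.1, 41.9 and 43.3 FPKM against 28.6, 29.2 and 28.5 FPKM (log2 change -0.56, SE 0.05, edgeR adjusted p = 8.24e-06). Its FPKM ratio to Efna1 was 6.15 ± 0.772 and 6.25 ± 0.549 (n = 3), ranges that overlapped. Its ratio to Efna4, the most abundant ephrin-A of the Control group, was 4.002 ± 0.472 and 6.94 ± 0.191 (n = 3), without overlap. Epha10, a receptor without kinase activity, had 6, 0 and 10 counts in the Control libraries, and with rShh 144, 187 and 155 counts, or at most 0.0528 FPKM and 0.605 to 0.749 FPKM. Its log2 change was 4.57 (SE 0.64, edgeR adjusted p = 0.000142), and 5.43 without Control replicate 3.

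Epha4, which binds ephrins of both classes, rose from 1.13 ± 0.0664 to 1.69 ± 0.211 FPKM (n = 3; edgeR adjusted p = 0.00326), and did not pass on quantile-normalized FPKM (limma adjusted p = 0.215). Epha7 fell from 1.13 ± 0.164 to 0.796 ± 0.0993 FPKM (n = 3; edgeR adjusted p = 0.0460) and did not pass without Control replicate 1, Control replicate 2, rShh replicate 2 or rShh replicate 3 (edgeR adjusted p = 0.124, 0.0634, 0.150 and 0.105), with the replicate block (edgeR adjusted p = 0.0571) or with DESeq2 (adjusted p = 0.0698). Epha1 was at 0.237 to 0.432 FPKM in the Control and 0.0799 to 0.218 FPKM in the rShh libraries and did not pass (edgeR adjusted p = 0.0568), but passed without Control replicate 1 or rShh replicate 1 (edgeR adjusted p = 0.0356 and 0.0405), with upper-quartile scaling (edgeR adjusted p = 0.0454) and with a filter of at least 50 counts in 3 samples (edgeR adjusted p = 0.0358). Its row overlaps Zyx, an abundant gene on the other strand, by 145 bases, so its low counts are uncertain. Epha3 stayed at or below 0.102 FPKM and did not pass.

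**Figure D3:**
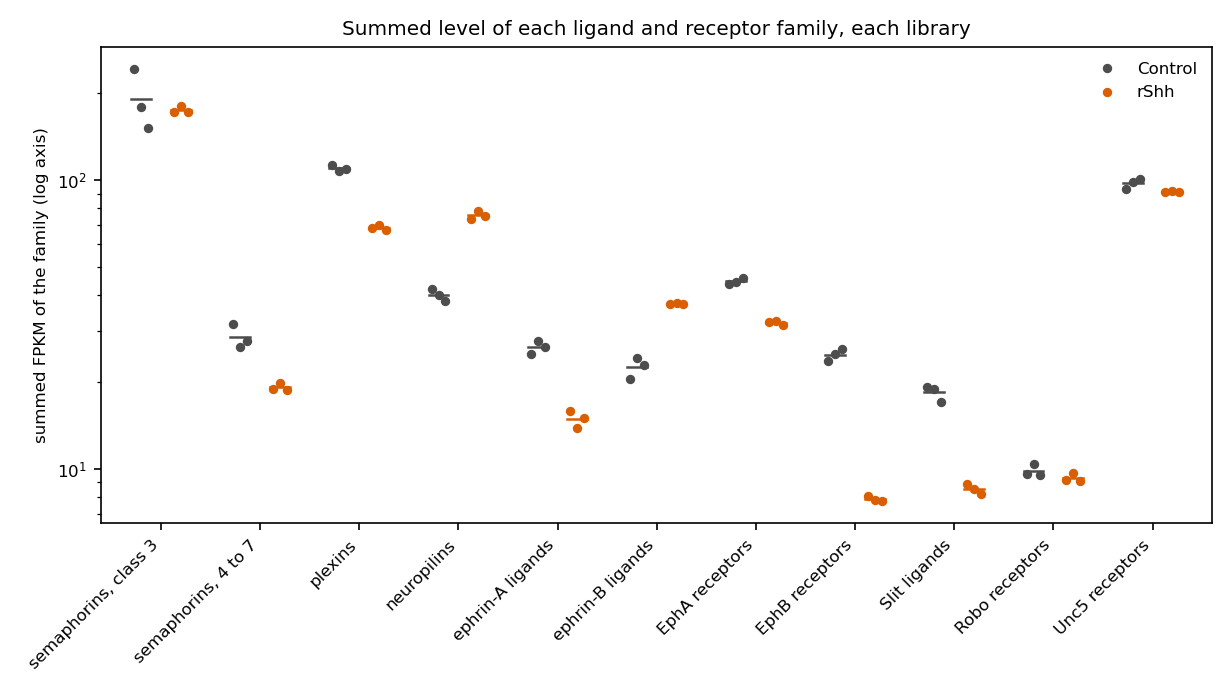
Summed FPKM (log axis) of each ligand and receptor family in each library; points are libraries (grey Control, orange rShh) and lines group means. The neuropilin and ephrin-B sums are higher in the rShh group, the EphB, Slit, ephrin-A, plexin, EphA, membrane semaphorin and Unc5 sums lower, and the class 3 semaphorin and Robo sums overlap.

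Slit2, Slit3 and Robo1 fell, and Robo2 did not pass. Slit2 (chromosome 14, 66831848 to 67170361), the Slit most studied in vessels and axons, read 16.9, 16.3 and 14.2 FPKM in the Control libraries, and with rShh 6.90, 6.47 and 6.38 FPKM. The groups were far apart (log2 change -1.27, SE 0.08, edgeR adjusted p = 3.61e-07). Slit3 read 2.34, 2.60 and 2.92 FPKM against 1.93, 2.02 and 1.81 FPKM (log2 change -0.46, SE 0.11, edgeR adjusted p = 0.00513). Slit1 had at most 3 counts in any library. The summed Slit FPKM was 18.4 ± 1.15 and 8.51 ± 0.321 (n = 3).

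Robo1 read 1.79, 2.07 and 2.04 FPKM in the Control libraries, and with rShh 0.447, 0.748 and 0.639 FPKM (log2 change -1.69, SE 0.18, edgeR adjusted p = 2.34e-05). Robo2, the more abundant receptor, read 7.80, 8.36 and 7.48 FPKM against 8.71, 8.91 and 8.41 FPKM. The change of 0.13 (SE 0.06) did not pass (edgeR adjusted p = 0.0903) and passed without Control replicate 2 (edgeR adjusted p = 0.0446). The FPKM ratio of Slit2 to Robo2 was 2.17, 1.95 and 1.899 in the Control libraries, and with rShh 0.792, 0.726 and 0.759. That of Robo2 to Robo1 was 4.02 ± 0.353 and 14.9 ± 4.05 (n = 3). The summed Robo FPKM, 9.84 ± 0.503 and 9.29 ± 0.326, overlapped between the groups.

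**Figure D4:**
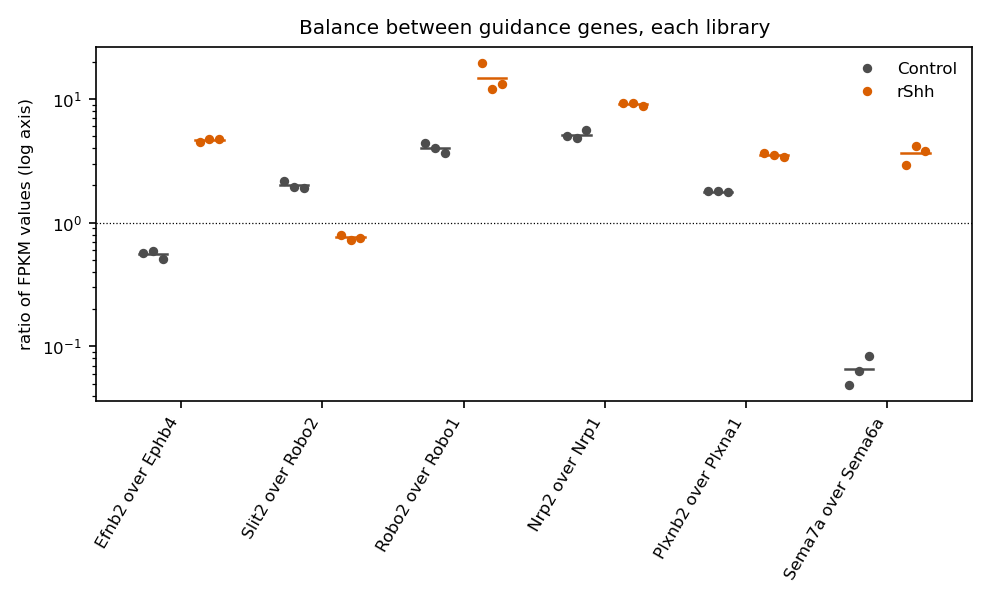
Ratio of the FPKM values of 2 guidance genes (log axis) in each library, for 6 pairs chosen with their values known; points are libraries (grey Control, orange rShh), lines group means and the dotted line a ratio of 1. Efnb2 over Ephb4 and Sema7a over Sema6a pass from below to above 1, and Slit2 over Robo2 from above to below 1.

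Netrin receptors of the Unc5 group were led by Unc5b, a receptor of vessels and leukocytes, which gave 99.5% of the family's sum in the Control and 98.8% in the rShh group. It read 92.9, 98.3 and 100.2 FPKM in the Control libraries, and with rShh 89.6, 91.0 and 90.3 FPKM. The groups did not overlap, but the change of -0.11 (SE 0.05) did not pass (edgeR adjusted p = 0.0684). It passed without Control replicate 1 (edgeR adjusted p = 0.00602) and with upper-quartile scaling (edgeR adjusted p = 0.00997). Unc5c read 0.501, 0.386 and 0.555 FPKM against 1.06, 1.08 and 0.946 FPKM (log2 change 1.09, SE 0.15, edgeR adjusted p = 0.000155). Unc50, the row outside the families, fell from 26.6 ± 2.54 to 21.7 ± 2.11 FPKM (n = 3; edgeR adjusted p = 0.0170) and did not pass without rShh replicate 1 or rShh replicate 3 (edgeR adjusted p = 0.0721 and 0.0710).

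Neighbours on a chromosome did not always move together. Sema3b and Sema3f, 76353 bases apart on chromosome 8, both rose. On chromosome 2 the rows of Efna1, Efna3 and Efna4 follow one another at gaps of 41630 and 10716 bases; the outer pair fell, and Efna3 had a log2 change of -0.28 that did not pass. On chromosome 4 Sema3e rose and Sema3d fell, with Sema3a between them. Robo1 and Robo2, 919473 bases apart on chromosome 11, had log2 changes of -1.69 and 0.13.

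Isoforms were read from a second table, in which 13 of the 57 genes had more than 1 row. Of 40 member isoforms with a mean of at least 1 FPKM, 8 rose, 19 fell and 13 did not pass (limma on log2(FPKM + 1)). Among all 13699 isoforms tested 56.5% were called, 28.8% higher and 27.7% lower. In 4 genes at least 2 isoforms reached that level: Plxnb2, Robo2, Slit2 and Sema4a. The 37-exon isoform of Slit2 held 88.1% ± 3.21 of the gene's counts in the Control and 84.4% ± 0.472 in the rShh group (n = 3), ranges that overlapped. Both Slit2 isoforms fell (limma adjusted p = 6.50e-05 and 0.0406); the call of the 33-exon isoform was lost without rShh replicate 1, 2 or 3 (limma adjusted p = 0.0825, 0.0929 and 0.106) and with no minimum FPKM (limma adjusted p = 0.0770). The 38-exon isoform of Plxnb2 held 78.6% ± 3.71 and 78.5% ± 3.17 (n = 3) and fell; the 36-exon isoform did not pass (limma adjusted p = 0.0969), but passed with the replicate block (limma adjusted p = 0.0140) and without Control replicate 3 (limma adjusted p = 0.0298). The 4 isoforms of Robo2 did not pass, and the 27-exon one held 52.1% ± 5.19 and 47.1% ± 2.37 (n = 3). The coding isoform of Sema4a passed (limma adjusted p = 0.0275) and was lost without Control replicate 1, Control replicate 3 or any of rShh replicates 1, 2 and 3 (limma adjusted p = 0.0542 to 0.0972) and with the replicate block (limma adjusted p = 0.0710). For these 4 genes the isoform shares overlapped between the groups.

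Signalling partners of these families, inside the cell and at its surface, and other guidance genes were read from 4 further lists. Of 26 tested semaphorin and plexin partners 10 rose, 11 fell and 5 did not pass, so that 80.8% were called beside 60.3% of all genes tested (median log2 change -0.14, beside 0.01). Itgb1, the integrin subunit through which Sema7a acts, rose from 458 ± 25.5 to 947 ± 20.3 FPKM, and Itga1 from 19.0 ± 2.59 to 53.7 ± 2.30 FPKM (n = 3). Fyn, a kinase of the Sema3a response, fell from 9.89 ± 0.243 to 3.39 ± 0.326 FPKM, and Farp2, an exchange factor bound by plexin-A1, from 14.1 ± 0.225 to 6.42 ± 0.520 FPKM.

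Of 28 tested Eph and ephrin partners 11 rose, 7 fell and 10 did not pass (median 0.18). The share called, 64.3%, was near the 60.3% of all genes, so this count is no result about these genes. Sdcbp, or syntenin, a scaffold that binds the tails of ephrin-B proteins, rose from 72.0 ± 5.59 to 238 ± 5.91 FPKM, and the kinase Yes1 from 8.31 ± 1.49 to 23.3 ± 0.101 FPKM (n = 3). The adaptors Grb10 and Nck2 fell from 63.8 ± 2.42 to 31.5 ± 0.455 and from 9.45 ± 0.552 to 5.09 ± 0.224 FPKM.

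Of 19 tested Slit and Robo partners 11 rose, 5 fell and 3 did not pass (median 0.26). That is 84.2% called and 57.9% higher, beside 60.3% and 31.5% of all genes. Most of these changes were small: 1 gene was called and at least 2-fold higher (5.26%, against 13.0% of all genes). Called and at least 2-fold lower was 1 gene (5.26%, against 5.71%). Enah, an actin regulator that Robo1 recruits, rose from 68.5 ± 5.06 to 117.6 ± 2.13 FPKM, and Pak1 from 39.1 ± 0.404 to 57.1 ± 1.79 FPKM (n = 3). Gpc1, a proteoglycan that binds Slit, fell from 204 ± 11.7 to 124 ± 1.77 FPKM. Flrt3, a co-receptor of Robo1 that the netrin list also holds, fell from 1.83 ± 0.0776 to 0.501 ± 0.0973 FPKM.

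Of 24 tested netrin, RGM and other guidance genes 8 rose, 9 fell and 7 did not pass (median 0.22). That is 70.8% called, 33.3% higher and 37.5% lower, beside 60.3%, 31.5% and 28.8% of all genes. The netrins split: Ntn4, a basement membrane netrin, rose from 21.8 ± 0.923 to 43.7 ± 0.462 FPKM, and Ntn1, the classic ligand of Unc5 receptors, fell from 20.9 ± 1.27 to 10.6 ± 0.133 FPKM (n = 3). Vldlr, a reelin receptor, rose from 20.1 ± 1.15 to 36.1 ± 1.43 FPKM. Dcc, Dscam, Hfe2, Ntn5 and Tenm1 of this list had no row.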

How the data were processed

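Messenger RNA of 6 samples was analysed, 3 per group as the titles give them. The submitters' processing notes list StringTie 1.3.4d, HISAT2 2.0.4 and cutadapt 1.9 beside edgeR and DESeq2. What each did, which build was used and whether counting used strand (the library kit marks it) is not given in these sources. The authors deposited whole-number counts, not normalized, and FPKM values, scaled to transcript length and library size per the file headers, for genes and for isoforms. No gene row was without a count, the lowest sum being 1.

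The gene test used edgeR 4.0.16 in R 4.3.3 on the counts as deposited (filterByExpr with minimum count 10, TMM scaling, glmQLFit, glmQLFTest). It was two-sided, had no term but the group, and its p-values were adjusted by Benjamini-Hochberg over all 14775 genes tested. The SE was derived from the F statistic. Levels are deposited FPKM, and fold changes are edgeR's, from counts. For isoforms limma 3.58.1 with a trend was run on log2(FPKM + 1) where the mean was at least 1 FPKM; that scale understates changes of low isoforms. Family sums and ratios were described without a test. For genes, whether groups overlap was judged on TMM-scaled CPM. Family sums and ratios were compared on FPKM, and isoform shares on percent of the gene's counts. Robo2 overlapped on CPM but not on FPKM. No library was a repeat of another (chi-square per degree of freedom at least 10.5 within groups). Alternatives (DESeq2 1.42.0, other scalings and filters, limma on FPKM, a replicate block, leaving out each library) are in the closing section. The tests were also run on simulated counts in which few genes changed. That setting lacked the wide difference between the groups seen here, so it cannot speak for these calls. Depth limits low genes: 3 counts equal 0.0431 to 0.0591 CPM.

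The members and lists were chosen with earlier results of these data known. Named in full were called genes with a log2 change of at least 1 and the most abundant gene of each family, and in other lists up to 2 genes per direction with the smallest p.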

Additional observations from a re-analysis of the deposited data

How the results depend on the processing

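Of 33 called genes of the set (Unc50 included), 26 kept their direction and their call in every one of the up to 15 alternatives that gave a value; the other 7 were Efnb1, Efna5, Epha4, Epha7, Plxnd1, Sema4a and Unc50, and none of the 33 changed sign. The number of called genes in the set stayed within 1.5 times of 33 throughout, but limma on quantile-normalized FPKM called 6 of 35 tested as higher, where edgeR called 12 of 52. Without 1 library, genes that had not passed changed sign: Epha3 lay between -0.28 and 0.075, Ephb6 between -0.36 and 0.17, Sema3c between -0.31 and 0.038, Sema3g between -0.63 and 0.23 and Sema6d between -0.28 and 1.52. Sema4b was -0.075 on quantile-normalized FPKM. Of the Robo2 isoforms, the 27-exon one lay between -0.040 and 0.035 and the 2-exon one between -0.035 and 0.17.

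Family sums depended on their most abundant gene. Without it the log2 ratio of rShh to Control turned from -0.48 to 0.33 for EphA receptors, from -0.10 to 1.10 for Unc5, from 0.73 to -0.29 for ephrin-B ligands and from -0.58 to 0.28 for membrane semaphorins. It moved from -1.66 to -1.31 for EphB, from -0.08 to -1.69 for Robo, from -1.11 to -0.45 for Slit, from -0.82 to -0.55 for ephrin-A, from 0.92 to 0.20 for neuropilins and from -0.68 to -1.21 for plexins. Summed CPM gave 0.016 for Robo, -0.90 for membrane semaphorins and -0.75 for plexins. Replicate numbers did not pair the samples (correlations of deviations -0.05, -0.03 and -0.04); with the replicate block edgeR called 32 genes of the set, 12 higher and 20 lower. Low genes, under 0.1 FPKM, are limited by their counts.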
